A study of Mus musculus with 10 samples.

Results

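Osteoblasts with active β-catenin were compared directly with osteoblasts that lacked FoxO1. The comparison used the 3 samples titled as β-catenin arrays and the 3 titled as FoxO1 arrays, 6 of the 10 samples in all, and all 11357 genes that passed the filter on low signal. The first group carried β-catenin that is constitutively expressed in osteoblasts (active β-catenin below). The second had FoxO1 deleted in osteoblasts (FoxO1-deleted below). Both came from mice 2 to 3 days old, with the background strain recorded as C5BL6 and the sex as not determined. The 4 wild-type samples were of the same age and recorded strain. They entered the filter on low signal and the estimate of the spread between arrays, and their means are given beside some genes as a description. They are not the reference for any difference given here. Neither the promoter or Cre line behind each mutation, nor whether a sample was 1 animal, a pool or a culture, is stated in the labels. The p-values therefore reflect how far these samples vary, and that variation may be technical.

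β-catenin, encoded by Ctnnb1, is the nuclear effector of canonical Wnt signalling. Once stabilised, it binds TCF/LEF transcription factors and switches on their targets, several of which are secreted or intracellular inhibitors of the same pathway. FoxO1 is a forkhead transcription factor of stress defence, metabolism and cell-cycle arrest, and FoxO proteins can also bind β-catenin. In bone, Wnt signalling in osteoblasts is known to promote bone formation and to restrain osteoclasts, the cells that resorb bone, through Tnfrsf11b.

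Values are log2 MAS5 signals of Affymetrix probe sets, so a step of 1 is a doubling. Differences are active β-catenin minus FoxO1-deleted, ± SE, and group values are mean ± SD with n = 3 arrays. Array medians lay between 7.02 and 7.22 in the whole series. Col1a1, the main collagen chain of bone, had a signal of 15.26, 15.23 and 15.09 with active β-catenin and 15.16, 15.04 and 15.35 with FoxO1 deleted, near the table's highest value of 15.86. FoxO1-deleted arrays 2 and 3 had high Xist signal (14.22 and 14.43), against 7.88 in FoxO1-deleted array 1 and 5.91 to 7.06 with active β-catenin. Eif2s3y, a Y-linked gene, was low in the same 2 arrays (3.54 and 3.32) and lay between 10.78 and 11.29 in the other 4. By these 2 sex-linked genes, FoxO1-deleted arrays 2 and 3 had the female pattern and no active β-catenin array did. Sex was therefore not balanced between the groups. FoxO1-deleted array 3 also stood apart in interferon-response genes, as described further on. A bulk sample cannot tell fewer cells of a type from less RNA per cell.

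Ctnnb1 had a signal of 14.49, 14.44 and 14.42 with active β-catenin and 14.52, 14.46 and 14.76 with FoxO1 deleted. The groups overlapped, with a difference of -0.13 ± 0.09 (limma adjusted p = 0.807). Foxo1 had a signal of 10.10, 10.07 and 10.09 with active β-catenin and 9.80, 10.13 and 9.67 with FoxO1 deleted. FoxO1-deleted array 2 lay above all 3 active β-catenin arrays, and the difference was 0.22 ± 0.11 (adjusted p = 0.69). The 2 other Foxo1 probe sets differed by 0.11 and 0.05. The labels do not say which exons the mutations changed, and so the signal of these genes does not check the labels.

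The genes with the largest higher signal in active β-catenin osteoblasts were Wfdc18, Coch, Fabp7 and Car12, and that with the largest higher signal in FoxO1-deleted cells was Gm34303. In the fit with limma, 76 genes passed a Benjamini-Hochberg adjusted p of 0.05, which is 0.669% of those tested. Of these, 66 (0.581%) were higher and 10 (0.0881%) lower with active β-catenin, and 37 of the 66 and 2 of the 10 differed at least 2-fold. All 76 had 3 active β-catenin arrays on one side of the 3 FoxO1-deleted arrays, as did 9.54% of all tested genes. The median difference over all genes was 0.003.

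The number of calls depended on which arrays estimated the spread. The 6 mutant arrays alone gave 25 calls, all among the 76, of which 23 were higher and 2 lower. Leaving out FoxO1-deleted array 1, active β-catenin array 3 or active β-catenin array 2 left 29, 30 and 45 calls. Without FoxO1-deleted array 3 there were 62 calls, of which 49 were among the 76. With Xist signal as a term in the fit 6 genes passed. All 76 differences kept their sign in that fit, at a median of 0.97 times the size given here. The low-Xist arrays alone hold 1 FoxO1-deleted array (array 1). Because no called gene overlapped between groups, the signs were fixed there in advance, and the median size of 1.01 times is a description. The part of Xist signal, and of the sex that it marks, in the calls was not tested further. A core of 22 genes passed with each of the 10 arrays left out in turn. It holds Coch, Fabp7, Car12, Sp6, Irx6, Fst, Plppr4, Notum, Dnajc9, Abca8a, Limch1, Ccn2, Fgf13, Nt5e, Pdpn, Cdkn1a, Ackr3, Rb1, Hnrnpll, Sgk1, Ptx3 and, as the only gene lower with active β-catenin, Gm34303. Each of the other 54 called genes lost its call without at least 1 array. Of the 22, 19 also passed with the 6 mutant arrays alone. With the Xist term only Coch, Car12, Fst, Ccn2, Pdpn and Cdkn1a of the 22 passed. Of this core, Coch, Car12, Sp6, Irx6 and Gm34303 entered the test only through the group where they were high, as described below. For these genes a place in the core is a description and adds no support.

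**Figure D1:**
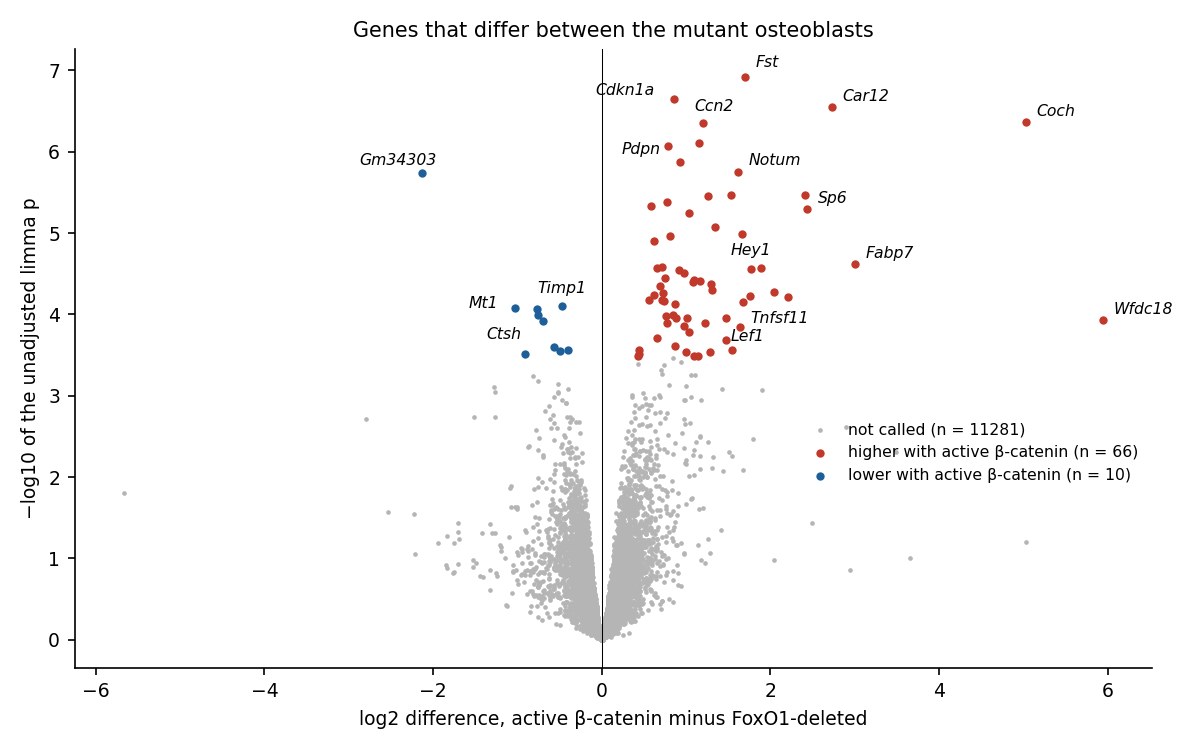
Each point is 1 of the 11357 tested genes. The x axis is the log2 difference, active β-catenin minus FoxO1-deleted, and the y axis is −log10 of the unadjusted limma p. The 66 genes called higher (red) reach 5.95 for Wfdc18, while the 10 called lower (blue) stop at -2.13 for Gm34303.

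Several of the largest differences lay in genes that were below the table's median signal of 7.15 in FoxO1-deleted cells and well above it with active β-catenin. Of the 76 called genes, 9 exceeded that level in the 3 arrays of the group where they were high and in no other array, so they entered the test through that group alone. These are Wfdc18, Coch, Car12, Sp6, Irx6, Gchfr, Lratd1 and Sema3e, all higher with active β-catenin, and Gm34303, which was lower. A gene that enters in this way has to differ between groups, so the p-values and rank of these 9 are read as a description. Wfdc18, a secreted protein with a whey acidic protein domain, had a signal of 9.35, 8.83 and 8.79 with active β-catenin and 1.47, 3.51 and 4.15 with FoxO1 deleted. The FoxO1-deleted arrays lay far below the table's median, where MAS5 signal is imprecise, and varied widely among themselves. The difference was 5.95 ± 1.03, or 61.7-fold (adjusted p = 0.0241), but 20.3-fold with 16 added to the linear signals, and its adjusted p reached 0.124 in the fits that left out 1 array.

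Coch, which encodes the matrix protein cochlin, had a signal of 9.90, 10.84 and 10.90 with active β-catenin and 4.49, 5.64 and 6.43 with FoxO1 deleted. Every active β-catenin array was higher by several log2 units, and the difference was 5.03 ± 0.48 (32.6-fold, adjusted p = 0.00101). Fabp7, a fatty acid binding protein first known from brain, stood at 12.01, 11.46 and 11.22 against 8.81, 8.59 and 8.26. Both groups were well above the table's median here, and the difference was 3.01 ± 0.44 (8.06-fold, adjusted p = 0.0121). With Xist signal as a term in the limma fit it was 2.07 (adjusted p = 0.155), and in the low-Xist arrays alone, with 1 FoxO1-deleted array, 2.75. Among wild-type arrays Fabp7 stood at 10.79 and 10.71 where Xist was low and at 9.20 and 9.08 where it was high. Car12, a membrane-bound carbonic anhydrase, had 9.48, 9.12 and 9.45 with active β-catenin and 6.84, 6.83 and 6.20 with FoxO1 deleted. The groups lay far apart, with a difference of 2.73 ± 0.25 (6.62-fold, adjusted p = 0.00101).

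Transcription factors were also among the largest differences. Sp6, a zinc finger factor known from teeth and skin, had a signal of 8.46 ± 0.40 with active β-catenin against 6.02 ± 0.35 with FoxO1 deleted, a difference of 2.44 ± 0.30 (adjusted p = 0.00364). Irx6, an Iroquois homeobox factor, had 8.41 ± 0.18 against 6.01 ± 0.26, a difference of 2.41 ± 0.28 (adjusted p = 0.00309). Irx3, a second gene of that family, was called at a smaller difference of 0.73 ± 0.12, with 12.20 ± 0.18 against 11.47 ± 0.18. Sp6 and Irx6 lay below the table's median in all 3 FoxO1-deleted arrays, while Irx3 was strongly expressed in both groups.

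The other genes among the 12 largest higher differences were of mixed function. Adra2c, an adrenergic receptor, differed by 2.21 ± 0.36, and its other probe set by 4.07. Gchfr, the feedback regulator of GTP cyclohydrolase, differed by 2.04 ± 0.32, Lratd1 by 1.89 ± 0.28 and the secreted protein Ism1 by 1.76 ± 0.28. Hey1 and Fst complete the 12 and are described with their pathways. Of all 76 called genes, 27 had other probe sets that passed the filter, 43 in all, and 37 of those had the sign of the one used.

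**Figure D2:**
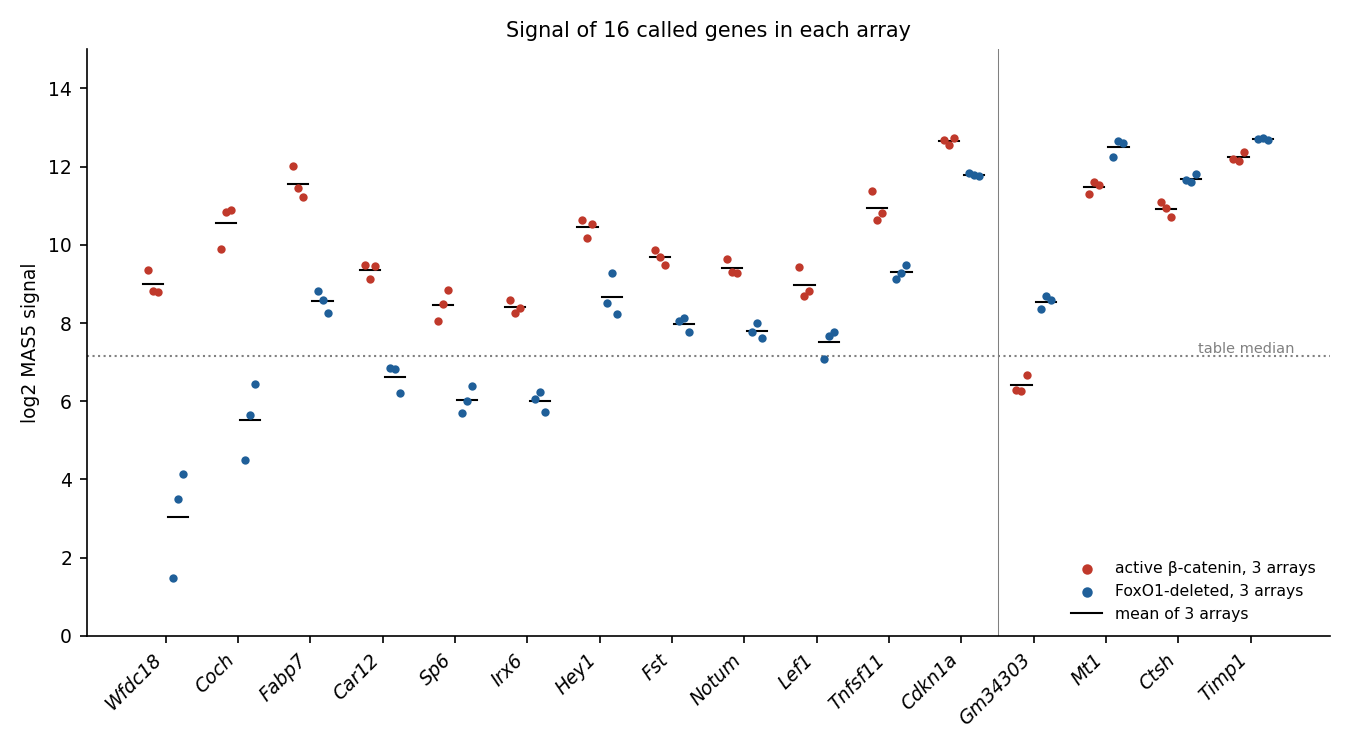
Log2 MAS5 signal of 16 called genes in each of the 6 arrays (points; red active β-catenin, blue FoxO1-deleted) with the mean of each group of 3 (black bars) and the table's median of 7.15 (dotted). The groups do not overlap for any of the 16, and Wfdc18, Coch, Car12, Sp6 and Irx6 fall below the median in every FoxO1-deleted array.

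Notum, Lef1, Nkd1 and Bambi, known targets of canonical Wnt signalling, were higher with active β-catenin. Of 29 tested genes on a list of Wnt targets and feedback genes, these 4 were called higher and 0 lower, against 0.581% called higher among all genes. This list, like the others, was written with earlier results of these data known, so the comparison is a description. The median difference of the list was 0.13, and 19 of the 29 were positive. The 3-against-3 arrays did not overlap in 9 genes that were higher and 1 that was lower, against 5.39% and 4.16% of all tested genes. Tcf7, another known target, has no probe set listed in the annotation used here.

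Notum, a secreted enzyme that removes the lipid from Wnt proteins and so inactivates them, had a signal of 9.64, 9.31 and 9.28 with active β-catenin and 7.77, 7.99 and 7.62 with FoxO1 deleted. All 3 active β-catenin arrays were higher, by 1.62 ± 0.18 (3.07-fold, adjusted p = 0.0021). Lef1, a DNA-binding partner of β-catenin, had 9.44, 8.68 and 8.83 against 7.09, 7.66 and 7.76. The groups stood apart, with a difference of 1.48 ± 0.25 (adjusted p = 0.0236), which lost its call without some arrays (adjusted p up to 0.0891). Nkd1, an intracellular inhibitor that acts on Dishevelled, had 9.15, 8.87 and 9.09 against 8.01, 8.25 and 8.25. Its difference of 0.87 ± 0.14 (adjusted p = 0.019) was without overlap, and its 2 other probe sets differed by 0.32 and 0.40.

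Bambi, a decoy receptor for TGF-β family ligands and a known Wnt target, had a signal of 11.87, 11.54 and 11.86 with active β-catenin and 11.02, 11.19 and 10.94 with FoxO1 deleted. The difference was small and without overlap, at 0.71 ± 0.10 (adjusted p = 0.0121). Axin2, the most used readout of Wnt signalling, had 8.88, 8.91 and 9.18 against 8.42, 8.05 and 8.34. Its arrays did not overlap, but the difference of 0.72 ± 0.15 missed the threshold (adjusted p = 0.0741). Apcdd1, a membrane inhibitor of Wnt signalling, differed by 0.74 ± 0.15 (adjusted p = 0.0603), also without overlap. Wif1, a secreted Wnt inhibitor, was among the strongest signals of the list, at 14.71, 14.09 and 13.92 against 13.21, 13.68 and 13.49, with a difference of 0.78 ± 0.22 (adjusted p = 0.266). Twist1 was the 1 gene without overlap in the other direction, at -0.40 ± 0.11 (adjusted p = 0.263).

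Of 24 Wnt ligands and receptors tested, 0 passed in limma, at a median difference of 0.08. Ror2 and Lrp4, a receptor and a co-receptor, had the smallest p-values of this list, with differences of 0.41 ± 0.12 and 0.56 ± 0.17 (adjusted p = 0.269 and 0.33), and neither overlapped between groups. Sostdc1, a secreted antagonist of BMP and Wnt signals that was on no list, was called higher at 9.47, 9.84 and 9.85 against 8.56, 8.54 and 8.93. Its difference was 1.04 ± 0.19 (adjusted p = 0.0309).

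The promoters of called genes were searched for the TCF/LEF letters CTTTGA and the FoxO letters TGTTTAC on both strands, neither motif containing the other. RefSeq promoters (GRCm38.p6, 250 bases before to 50 after each start) were found for 46 of the 66 higher and 7 of the 10 lower genes. Among the 46, 5 genes (10.9%) had a TCF/LEF match in at least 1 promoter, namely Kcnk2, Lef1, Limch1, Sema3e and Sgk1, and 2 (4.35%), Limch1 and Pdpn, had a FoxO match. Among the 7, Mst1r and Timp1 had a TCF/LEF match and 0 a FoxO match. Of the 9224 tested genes with a promoter, 13.9% and 3% had such matches, and of all 32841 promoters of this length 16% and 3.65%. A match is a run of letters, not a site shown to be bound. Pdpn, with its FoxO match, was among the 22 calls that passed with each array left out in turn. The 3 sequences below are the promoters of the called genes with 2 TCF/LEF matches in 1 window, Lef1 and Sgk1, and of Pdpn. They lie at chr3:131156044-131156343 on the plus strand, chr10:21978422-21978721 on the plus strand and chr4:143299515-143299814 on the minus strand. They are written 5′ to 3′ with the matches, read on either strand, in capitals. The Lef1 window printed belongs to a start downstream of its other ones. The Lef1 windows from bases 131110047, 131110073 and 131112541 held 0 TCF/LEF matches. The other Sgk1 windows held 1 match or 0.
Lef1: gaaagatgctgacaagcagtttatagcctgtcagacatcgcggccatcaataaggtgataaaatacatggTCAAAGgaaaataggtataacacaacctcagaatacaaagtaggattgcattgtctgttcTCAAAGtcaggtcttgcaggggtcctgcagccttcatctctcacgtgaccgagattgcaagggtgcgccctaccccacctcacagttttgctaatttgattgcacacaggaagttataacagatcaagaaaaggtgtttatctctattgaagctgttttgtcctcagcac
Sgk1: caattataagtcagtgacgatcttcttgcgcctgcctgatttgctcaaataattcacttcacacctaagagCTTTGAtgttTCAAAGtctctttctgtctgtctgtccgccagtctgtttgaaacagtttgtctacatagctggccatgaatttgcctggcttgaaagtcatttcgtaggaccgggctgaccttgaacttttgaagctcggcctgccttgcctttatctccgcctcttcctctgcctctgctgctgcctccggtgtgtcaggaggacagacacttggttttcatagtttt
Pdpn: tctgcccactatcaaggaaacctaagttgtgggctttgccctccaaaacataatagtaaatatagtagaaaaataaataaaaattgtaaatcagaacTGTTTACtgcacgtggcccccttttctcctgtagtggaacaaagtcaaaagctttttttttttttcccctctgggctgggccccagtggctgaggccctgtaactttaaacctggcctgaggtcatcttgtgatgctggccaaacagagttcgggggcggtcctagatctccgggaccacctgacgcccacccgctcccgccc

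Of 21 tested genes of the Notch pathway 1 was called, against 0.669% of all tested genes. The same share stands beside the single calls of the lists below. A single call describes that gene and not its list. The called Notch gene was Hey1, a transcriptional repressor that Notch induces. Its signal was 10.63, 10.17 and 10.53 with active β-catenin and 8.50, 9.29 and 8.22 with FoxO1 deleted. The highest FoxO1-deleted array lay below the lowest active β-catenin array, and the difference was 1.77 ± 0.26 (3.42-fold, adjusted p = 0.0121; up to 0.0662 with an array left out). The list's median difference was 0.08. Jag1, the Notch ligand that the osteoblast niche is known for, had 11.31, 10.96 and 10.85 against 10.94, 11.34 and 10.62. Its groups overlapped throughout, with a difference of 0.07 ± 0.16 (adjusted p = 0.968). Heyl, a relative of Hey1, differed by 0.47 ± 0.15 without overlap but without passing the test (adjusted p = 0.335).

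Among 31 genes of the BMP and TGF-β pathway, Fst was called higher, 0 were called lower, and the median difference was 0.09. Fst encodes follistatin, a secreted protein that binds activin and blocks it. It had a signal of 9.86, 9.68 and 9.49 with active β-catenin and 8.04, 8.12 and 7.78 with FoxO1 deleted. The arrays of each group lay close together, and the difference of 1.70 ± 0.14 (3.24-fold, adjusted p = 0.00101) was the call with the smallest p of all genes. Bmp2, a bone-inducing ligand, had 12.02, 11.14 and 11.91 against 10.27, 10.64 and 10.98. It did not overlap either, but 1.06 ± 0.22 missed the threshold (adjusted p = 0.0751).

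Ccn2 and Klf10, both known as early TGF-β response genes, were on no list and were called higher. Ccn2, connective tissue growth factor, had a signal of 13.81, 13.59 and 13.33 against 12.30, 12.39 and 12.43, a difference of 1.2 ± 0.12 (adjusted p = 0.00101). Klf10, a zinc finger repressor, had 11.64, 11.74 and 11.23 against 10.78, 10.87 and 10.80, a difference of 0.72 ± 0.12 (adjusted p = 0.018). Both genes varied more among the active β-catenin arrays than among the FoxO1-deleted ones. In the Hedgehog list 0 of 12 genes passed in limma, at a median difference of 0.13. Without overlap, 4 of the 12 were higher and 1 lower, against 5.39% and 4.16% of all tested genes. Hhip and Ptch1, a decoy and a receptor that Hedgehog signalling induces, differed by 0.69 ± 0.17 and 0.44 ± 0.12 (adjusted p = 0.147 and 0.228), and Boc, a co-receptor, by 0.40 ± 0.10 (adjusted p = 0.162), each without overlap.

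Of 27 FoxO genes and targets, 1 was called higher with active β-catenin and 0 lower, and the list's median difference was 0.06. That gene was Cdkn1a, a cyclin-dependent kinase inhibitor that FoxO factors and p53 induce. Its signal was 12.69, 12.54 and 12.72 with active β-catenin and 11.84, 11.78 and 11.75 with FoxO1 deleted. The wild-type mean of Cdkn1a was 11.73, beside a FoxO1-deleted mean of 11.79 and an active β-catenin mean of 12.65. The spread within groups was small beside the difference of 0.86 ± 0.08 (1.82-fold, adjusted p = 0.00101), and its other probe set differed by 0.81. Pdk4, which slows glucose oxidation and is a classic FoxO target, had 10.79, 10.73 and 10.59 against 10.23, 9.43 and 10.21. It did not overlap but did not pass, at 0.75 ± 0.18 (adjusted p = 0.162). Txnip and Sesn1, known as FoxO targets of redox control, differed by 0.58 ± 0.18 and 0.51 ± 0.18 (adjusted p = 0.336 and 0.452), each without overlap.

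Genes of growth control outside the lists were also called. Rb1, the retinoblastoma tumour suppressor, had a signal of 10.40, 10.47 and 10.42 with active β-catenin and 9.69, 9.69 and 9.54 with FoxO1 deleted, a difference of 0.79 ± 0.08 (adjusted p = 0.00137). Skp2, the ubiquitin ligase subunit that marks cell-cycle inhibitors for destruction, was lower, at 10.11, 10.02 and 10.10 against 10.58, 10.75 and 10.39. Its difference was -0.50 ± 0.10 (adjusted p = 0.0467, lost in 9 of the 10 fits that left out an array), and its 5 other probe sets differed by -0.32 to -0.56. Of 35 genes of DNA replication and mitosis, 0 passed in limma in either direction, at a median difference of -0.05. Sgk1 and Sgk3, kinases of the insulin and PI3K branch that share targets with Akt, were both called higher, by 0.62 ± 0.08 and 0.76 ± 0.13 (adjusted p = 0.00669 and 0.0236). Sgk1 had 11.14, 11.17 and 11.04 against 10.47, 10.51 and 10.51, so its groups were narrow and apart.

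The metallothionein Mt1 was lower with active β-catenin, that is, higher in FoxO1-deleted cells. Mt1, a metal-binding protein that scavenges oxidants, had a signal of 11.29, 11.61 and 11.53 with active β-catenin and 12.25, 12.66 and 12.60 with FoxO1 deleted. All 3 FoxO1-deleted arrays were higher, and the difference was -1.03 ± 0.17 (2.04-fold, adjusted p = 0.0202; up to 0.0851 with an array left out). The other Mt1 probe set differed by -0.35. With Xist signal as a term in the limma fit the Mt1 difference was -1.17 (adjusted p = 0.164). In the low-Xist arrays alone, with 1 FoxO1-deleted array, it was -0.77. Among wild-type arrays Mt1 stood at 12.15 and 12.1 where Xist was low and at 11.62 and 11.59 where it was high. The part of Xist signal in this call was not tested. Mt2, from the same cluster, had 9.34, 10.50 and 10.28 against 11.11, 11.50 and 11.31. Its larger difference of -1.27 ± 0.28 missed the threshold (adjusted p = 0.108), although the groups did not overlap. Of 18 antioxidant and metallothionein genes, Mt1 was the 1 called gene. The list's median difference was 0, and 5 genes were lower without overlap against 4.16% of all tested genes, while 1 was higher. The glutathione transferase Gsta4 and the sulfiredoxin Srxn1 were among those 5, at -0.43 ± 0.11 and -0.36 ± 0.12 (adjusted p = 0.225 and 0.413).

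The main signal from osteoblasts to osteoclasts was higher with active β-catenin. Tnfsf11, the osteoclast-inducing cytokine RANKL, had a signal of 11.37, 10.63 and 10.81 with active β-catenin and 9.12, 9.29 and 9.48 with FoxO1 deleted. The groups lay over 1 log2 unit apart at their nearest arrays, and the difference was 1.64 ± 0.29 (3.12-fold, adjusted p = 0.0271; up to 0.114 with an array left out). Its other probe set differed by 1.61. With Xist signal as a term in the limma fit the difference of Tnfsf11 was 1.27 (adjusted p = 0.556). In the low-Xist arrays alone, with 1 FoxO1-deleted array, it was 1.82. Among wild-type arrays Tnfsf11 stood at 10.04 and 10.04 where Xist was low and at 9.12 and 9.01 where it was high. Tnfrsf11b, which encodes osteoprotegerin, the decoy that binds RANKL, had 10.40, 9.95 and 9.47 against 8.38, 9.06 and 8.09. It too was higher in every active β-catenin array, by 1.43 ± 0.32, but did not pass (adjusted p = 0.103). Of the 11 tested secreted regulators of osteoclasts and blood cells, Tnfsf11 was the 1 called gene, and their median difference was 0.22. Cxcl12, a chemokine that retains blood stem cells, was lower without overlap, at -0.35 ± 0.10 (adjusted p = 0.267). Ackr3, a scavenging receptor for Cxcl12, was on no list and was called higher, at 12.64, 12.26 and 12.23 against 11.54, 11.64 and 11.51, a difference of 0.81 ± 0.11 (adjusted p = 0.00615). Osteoclast markers did not pass in either direction (0 of 15 in limma), at a median difference of 0.04.

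Of 12 genes of prostaglandin synthesis and reception, 0 passed in limma, at a median difference of 0.10. Ptgs2, the inducible cyclooxygenase, had a signal of 8.30, 7.79 and 7.62 with active β-catenin and 6.44, 7.21 and 5.43 with FoxO1 deleted. The groups did not overlap, but the FoxO1-deleted arrays were spread over more than 1 log2 unit, and 1.54 ± 0.45 did not pass (adjusted p = 0.282). Ptgds, a prostaglandin D synthase, differed by 1.51 ± 0.43 with a like spread (adjusted p = 0.266). In the list of retinoid and xenobiotic genes, 1 of 15 was called higher, Cyp1b1, a cytochrome P450 that the aryl hydrocarbon receptor induces. It had 10.62, 9.91 and 9.64 against 8.70, 8.41 and 9.18, a difference of 1.29 ± 0.25 (adjusted p = 0.0467), and it passed in only 1 of the 10 fits that left out an array.

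Arnt, the partner of that receptor, was called higher at 1.47 ± 0.27 (adjusted p = 0.0373), with 10.78, 9.64 and 10.48 against 8.97, 9.18 and 8.33. Its 2 other probe sets differed by -0.13 and -0.05, so this difference belonged to 1 probe set only.

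Of 20 tested genes of osteoblast differentiation and bone matrix, on a list of 26, 0 passed in limma, and the median difference was -0.04, with the members lying between -0.35 and 0.31. Runx2, Spp1 and Bglap have no probe set listed in the annotation used here. Of 13 osteocyte and mineral genes, Car12 and Pdpn were called higher and 0 lower, against 0.581% called higher among all genes. The median difference of the list was 0.01. The list was written with earlier results of these data known, and Car12 entered the test through the active β-catenin arrays alone. Pdpn, the glycoprotein of early osteocytes and their processes, had a signal of 12.74, 12.74 and 12.81 with active β-catenin and 11.82, 11.79 and 11.89 with FoxO1 deleted. The arrays of each group were nearly equal, and the difference was 0.93 ± 0.10 (1.91-fold, adjusted p = 0.00191).

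Other osteocyte genes differed in both directions without passing. Mepe, a mineralisation-related matrix protein, had 7.96, 4.15 and 6.37 with active β-catenin and 8.53, 9.21 and 9.13 with FoxO1 deleted. The difference of -2.80 ± 0.69 was large, but the active β-catenin arrays alone ranged over almost 4 log2 units (adjusted p = 0.163). Dmp1 differed by -0.22 ± 0.11 and Phex by 0.43 ± 0.14 (adjusted p = 0.661 and 0.356), both without overlap.

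Matrix genes were called in both directions. Ctsh, a lysosomal cysteine protease on no list, had a signal of 11.10, 10.93 and 10.72 with active β-catenin and 11.65, 11.61 and 11.80 with FoxO1 deleted, a difference of -0.77 ± 0.13 (adjusted p = 0.0206). Timp1, an inhibitor of matrix metalloproteinases encoded on the X chromosome, had 12.19, 12.15 and 12.37 against 12.71, 12.72 and 12.68. The groups did not overlap, and the difference was -0.47 ± 0.08 (adjusted p = 0.0194). With Xist signal as a term it was -0.42 (adjusted p = 0.383). It was the 1 called gene among 16 matrix proteases and inhibitors (median difference -0.09). Col22a1, a collagen of tissue junctions, was the 1 called gene of 21 collagens (median 0.06), at 12.00, 11.59 and 11.78 against 12.25, 12.38 and 12.41, a difference of -0.56 ± 0.11 (adjusted p = 0.0437). Prelp, a leucine-rich matrix proteoglycan on no list, was higher by 0.66 ± 0.10 (adjusted p = 0.0121), with 10.31 ± 0.05 against 9.65 ± 0.06, but its other probe set differed by 0.09. The calls of Ctsh, Timp1 and Col22a1 were each lost without at least 4 single arrays, with adjusted p up to 0.103, 0.0819 and 0.162.

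**Figure D3:**
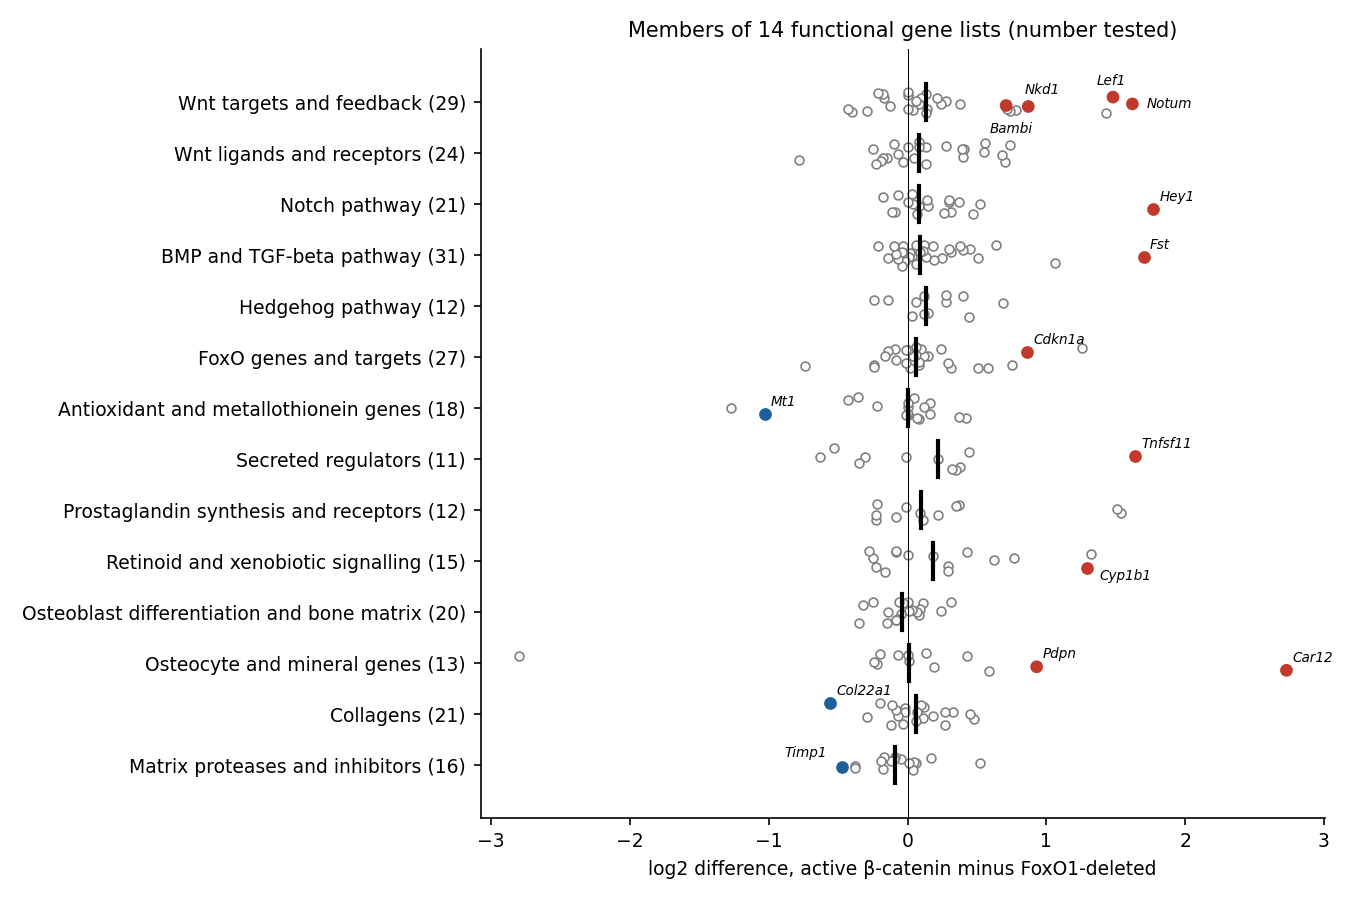
Each point is a tested member of 1 of 14 functional lists, placed by its log2 difference, active β-catenin minus FoxO1-deleted; filled points passed the limma test (red higher, blue lower) and black bars are list medians. The list medians range from -0.09 to 0.22, and some called members, such as Mt1 and Cdkn1a, lie inside uncalled ones. Car12, Hey1 and Fst stand at 2.73, 1.77 and 1.70.

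Genes of nucleotide and lipid signalling at the cell surface were called higher although no list held them, and they were picked after their values were seen. Nt5e, the ectoenzyme that makes adenosine, had a signal of 10.83, 10.76 and 10.91 with active β-catenin and 9.88, 9.48 and 10.02 with FoxO1 deleted. Enpp3, an ectoenzyme that cleaves extracellular nucleotides, had 10.43, 9.77 and 9.80 against 8.92, 8.80 and 9.02. The 2 differences were 1.04 ± 0.13 and 1.09 ± 0.17 (adjusted p = 0.00384 and 0.014). Lpar3, a receptor for lysophosphatidic acid, differed by 0.98 ± 0.17, and Plppr4, a membrane protein of the lipid phosphatase family, by 1.66 ± 0.22 (adjusted p = 0.0267 and 0.00615).

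Genes best known from neurons formed a further group picked in the same way. Sema3e, a secreted guidance cue, had a signal of 8.07, 7.89 and 8.12 with active β-catenin and 6.54, 6.46 and 6.05 with FoxO1 deleted, a difference of 1.68 ± 0.27 (adjusted p = 0.018). Npy, a neuropeptide that osteoblasts and osteocytes can also make, had 7.97, 8.24 and 8.11 against 7.33, 6.77 and 6.94, a difference of 1.09 ± 0.21 (adjusted p = 0.0492). Both genes were weak signals near the table's median. Stronger were Dpysl3, a cytoskeletal protein of growing axons, Ptprz1, a receptor phosphatase, and Kcnk2, a potassium leak channel, with differences of 0.56 ± 0.09, 0.69 ± 0.11 and 1.31 ± 0.21 (adjusted p = 0.018, 0.0148 and 0.0164). Of 9 neural and Schwann cell markers, 0 passed in limma and 8 were positive (median 0.56). The median was 0.28 without FoxO1-deleted array 3 or without active β-catenin array 1, and -0.02 in the low-Xist arrays alone. Their mean deviation in the 6 arrays was 0.51, 0.20 and -0.05 with active β-catenin and 0.31, -0.62 and -0.35 with FoxO1 deleted, so the groups overlapped, and their part in these calls was not tested.

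Of the remaining called genes in lists, Nr4a2, an orphan nuclear receptor and immediate early gene, was higher by 0.88 ± 0.15 (adjusted p = 0.0236) as the 1 call of 22 immediate early and heat shock genes (median 0.04). S100a4, a calcium-binding protein of fibroblasts, was higher by 0.44 ± 0.08 (adjusted p = 0.0459) as the 1 call of 22 fibroblast, tendon and smooth muscle markers (median 0.13). On the sex chromosomes, Fgf13, an intracellular member of the FGF family, and Reps2, an endocytic adaptor, were called higher at 1.15 ± 0.12 and 0.65 ± 0.12 (adjusted p = 0.00137 and 0.036). With Timp1 they were the 3 called genes on the X chromosome, and 0 lay on the Y. Fgf13 had 10.11, 10.42 and 10.30 against 9.31, 8.97 and 9.10, without overlap. With Xist signal as a term the difference of Fgf13 was 1.08 (adjusted p = 0.0644). In the low-Xist arrays alone, with 1 FoxO1-deleted array, it was 0.97.

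Interferon-response genes show how 1 array can shape a list. All 13 tested members were lower with active β-catenin by their means, with a median difference of -1.44, but 0 passed in limma. Rsad2, an antiviral enzyme, had a signal of 8.36, 9.72 and 8.87 with active β-catenin and 9.34, 9.71 and 12.16 with FoxO1 deleted. Oas1a, a sensor-linked synthetase of the same response, had 6.97, 8.23 and 7.36 against 8.12, 7.87 and 10.46. FoxO1-deleted array 3 was the high one in both, and the list's mean deviation was 3.51 in it and between -0.89 and -0.50 in the other 5 arrays. Without that array the median difference was -0.06.

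Cell types other than osteoblasts varied among arrays of both groups. Erythroid and neutrophil markers were highest in FoxO1-deleted array 2, with mean deviations of 1.12 and 1.18, and chondrocyte markers in FoxO1-deleted array 1, at 0.79. Of 21 chondrocyte markers, 19 were lower by their means with active β-catenin (median -0.36), but the median was -0.06 without FoxO1-deleted array 1. Ucma, a cartilage matrix gene, had 8.61, 8.07 and 8.34 with active β-catenin and 10.41, 9.28 and 8.35 with FoxO1 deleted, and its difference of -1.01 ± 0.39 did not pass (adjusted p = 0.508). Skeletal muscle markers were lowest in active β-catenin array 1 and FoxO1-deleted array 2, at -0.53 and -0.49, and highest in active β-catenin array 2 and FoxO1-deleted array 1, at 0.43 and 0.57. Endothelial markers had a median difference of 0.19 (0.06 without active β-catenin array 1) with 0 of 20 called in limma. Tie1 and Cdh5 differed by 0.51 ± 0.15 and 0.36 ± 0.11 without overlap (limma adjusted p = 0.291 and 0.297). Without overlap, 4 of the 20 were higher and 1 lower, against 5.39% and 4.16% of all tested genes. Apart from S100a4, 0 genes of any marker list were called.

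**Figure D4:**
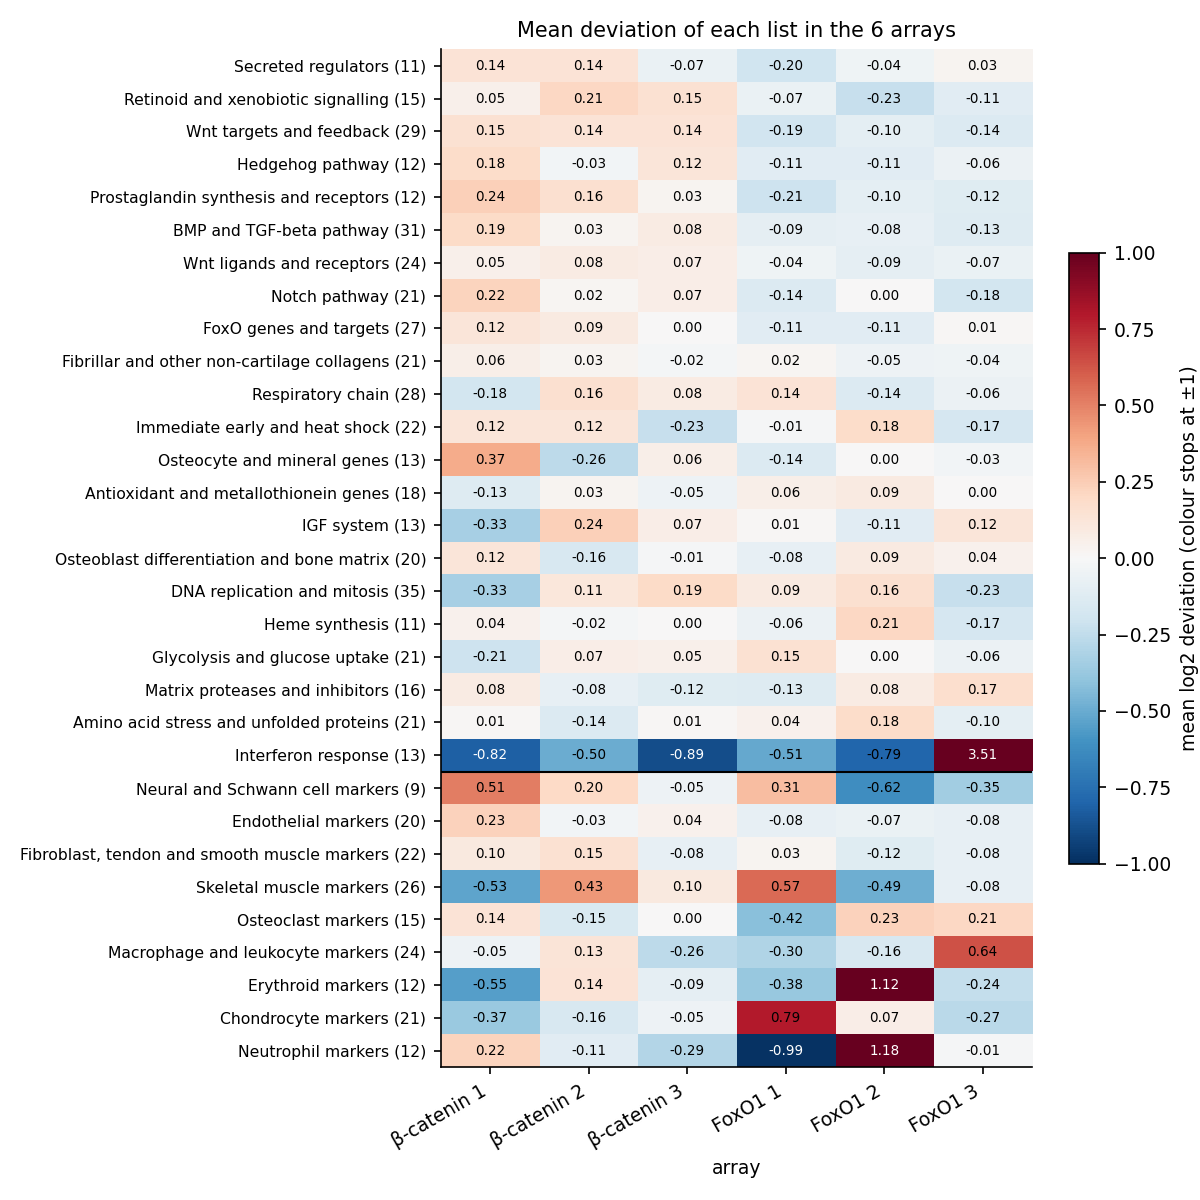
Mean log2 deviation of the tested members of each list with at least 9 tested genes (rows, with their number) in each of the 6 arrays (columns), relative to each gene's mean over these arrays; colour stops at ±1 and the line divides functional lists from cell-type markers. Wnt targets are positive in all 3 active β-catenin arrays (0.14 to 0.15) and negative in all 3 FoxO1-deleted arrays (-0.19 to -0.10). The lists of Wnt ligands and receptors, BMP and TGF-β, prostaglandin and retinoid genes have the same signs. The interferon list is at 3.51 in FoxO1-deleted array 3 alone.

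Chromosome 3, which carries Foxo1, held 13 of the 76 called genes among its 574 tested genes (2.26%), against 63 of 10783 on the other chromosomes (0.584%). Within 60 tested genes on either side of Foxo1, 7 of 121 were called (5.79%), and 24 (19.8%) did not overlap between groups. In the rest of the chromosome 6 of 453 were called (1.32%), and 11.9% did not overlap. On the other chromosomes 9.33% did not overlap. The window of 60 genes was chosen after these values were seen, and gene order was taken from RefSeq (GRCm38.p6). Those 7 genes are Atp11b, Acad9, Exosc9, Cetn4 and Spata5 on one side, and Gm34303 and Ptx3 on the other. Of them, Gm34303 entered the test through the FoxO1-deleted arrays alone.

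Gm34303, a predicted gene that directly follows Foxo1 in that order, had a signal of 6.29, 6.27 and 6.67 with active β-catenin and 8.35, 8.69 and 8.58 with FoxO1 deleted. It was the largest difference in favour of FoxO1-deleted cells, at -2.13 ± 0.24 (4.38-fold, adjusted p = 0.0021), and its wild-type mean was 6.43. Spata5, an ATPase of ribosome assembly, had 8.81, 8.37 and 8.74 against 7.57, 7.77 and 7.64, with a wild-type mean of 8.63, although its 2 other probe sets differed by -0.06 and 0.13. Exosc9, part of the exosome that degrades RNA, had 9.90, 10.05 and 10.02 against 9.32, 9.34 and 9.07, with a wild-type mean of 10.09. In these 3 genes the FoxO1-deleted arrays stood apart from both other groups. Acad9, a mitochondrial assembly factor, and Atp11b, a lipid flippase, differed by 0.78 ± 0.14 and 0.44 ± 0.09, with wild-type means of 9.19 and 10.40 beside active β-catenin means of 9.31 and 10.46; the other probe set of Acad9 differed by -0.33. The other genes of the window went the other way. In Ptx3 the wild-type mean was 10.9, beside 10.88 with FoxO1 deleted and 11.46 with active β-catenin. In Cetn4 the wild-type mean of 7.74 was nearer the FoxO1-deleted mean (7.37) than the active β-catenin mean (8.24). Deletion of Foxo1 and descent of its chromosome region cannot be told apart in these samples.

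**Figure D5:**
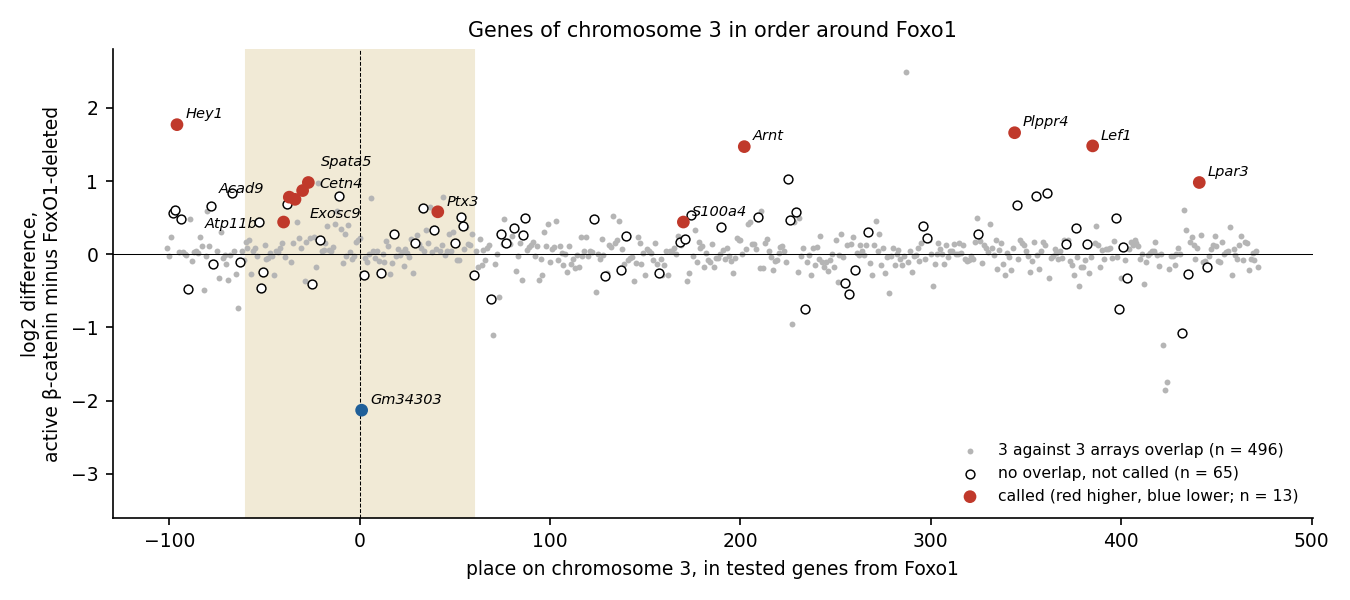
Log2 difference, active β-catenin minus FoxO1-deleted, of the 574 tested genes of chromosome 3, by their place in tested genes from Foxo1 (0 on the x axis); filled points are the 13 called genes, open circles the uncalled genes whose arrays did not overlap, and the shading spans 60 genes on either side. Gm34303 stands at -2.13 beside Foxo1, and 5 called genes between 0.44 and 0.98 lie together to its left.

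Wild type lay on the FoxO1-deleted side for most calls, as a description that uses the same active β-catenin and FoxO1-deleted arrays. Of the 66 genes called higher with active β-catenin, the wild-type mean was nearer the FoxO1-deleted mean in 57, among them Coch (5.70) and Notum (7.81), and nearer the active β-catenin mean in 9. Those 9 were Acad9, Arnt, Atp11b, Exosc9, Grb14, Pgghg, Reps2, Spata5 and Syt9. Of the 10 genes called lower, the wild-type mean was nearer the active β-catenin mean in 4, Gm34303, Mt1, Ctsh and Bmp2k. It was nearer the FoxO1-deleted mean in the other 6, Mst1r, Tent5a, D430019H16Rik, Col22a1, Skp2 and Timp1. Differences of Mst1r, Tent5a and D430019H16Rik were -0.91 ± 0.18, -0.76 ± 0.13 and -0.70 ± 0.12 (limma adjusted p = 0.0484, 0.0234 and 0.0245). Mt1, for example, had a wild-type mean of 11.86, between the active β-catenin mean of 11.48 and the FoxO1-deleted mean of 12.50.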

How the data were processed

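Total RNA (500 ng per the labels) of mouse osteoblasts was measured on 10 Affymetrix arrays. The authors deposited log2 MAS5 signal (MAS5 is named, with no version, in the submitters' processing notes), and the trimmed mean of the linear values is about 500.0 in each array. The log2 base was read from the values. Of 45101 probe sets, 34958 had 1 gene in the platform annotation, 932 several and 9211 none listed. A probe set was kept if 3 of 10 arrays exceeded the table's median, and of several kept probe sets of a gene the one with the highest mean was used. All 10 arrays entered 1 limma 3.58.1 fit in R 4.3.3 with 1 mean per genotype (7 residual degrees of freedom), eBayes with a trend, two-sided, adjusted by Benjamini-Hochberg over 11357 genes. The fit was tested on simulated data. Wild-type arrays 1 and 2, and 3 and 4, resemble each other, so an alternative averaged each pair. The number of arrays limits the precision, and the file holds no detection calls.

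Named genes are Ctnnb1, Foxo1 and up to 12 of the largest autosomal calls in each direction. Up to 4 called members of each list or the 2 with the smallest p, and up to 6 called genes on X or Y, are named too. Other genes were picked after their values were seen. The comparison and the gene lists were chosen with earlier results of these data known. Alternatives were other filters, scalings, gene summaries, variance priors, weights, arrays left out, a replicate block and terms for Xist signal. Of the list genes, 53 have no probe set listed.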

Additional observations from a re-analysis of the deposited data

How the results depend on the processing

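Of 76 calls, 25 remained with the 6 mutant arrays alone, while 49 genes passed with similar wild-type arrays averaged, 22 with the replicate number as a block and 6 with Xist signal as a term. In a fit chosen after seeing the data, 2 passed in the 6 mutant arrays with an Xist term. The fit of the low-Xist arrays alone, also chosen then, holds 1 FoxO1-deleted array, so only effect sizes are given from it. Leaving out 1 array gave 29 to 62 calls. Same-numbered arrays deviated from their group means with correlations of -0.23, -0.29 and -0.07, so the numbers do not pair the samples. Other filters, scalings, gene summaries, variance priors, weights and the removal of sex chromosomes gave 64 to 77 calls; median centring gave 57 higher and 12 lower. The difference of Plekha5 reversed to -0.20 with the most variable probe set. Jag1, not called, ranged from -0.10 (without FoxO1-deleted array 3) to 0.26 with an array left out, and was at -0.06 without active β-catenin array 1. Xist was at 0 with its own term, and Eif2s3y reached -1.76 there, -0.17 in the low-Xist arrays and -1.63 in the 6 mutant arrays with the term. The cause of these changes was not tested. With 3 arrays a group, and Wfdc18, Coch and 11 other calls below the table's median in their lower group, folds of weak genes are imprecise.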
